A study of Arabidopsis thaliana with 9 samples.

Results

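The 1853 regions described here had a peak of the transcription factor NAC103 on Arabidopsis DNA outside the cell, had no peak in seedling chromatin, and lay just outside protein-coding genes on the chromosome arms. They were chosen from 14344 arm regions that had a peak in both replicates of DNA affinity purification (DAP), among 23389 merged nuclear DAP regions in all. A region was kept if no peak of any chromatin immunoprecipitation (ChIP) list overlapped it by 1 bp and if its midpoint lay outside all coding genes but within 1000 bp of one. The DAP group held 2 replicates of NAC103-Halo on total genomic DNA of untreated Col seedlings, 5 days old, with 1 shared input. The ChIP group held 3 replicates of whole 35S:NAC103-GFP seedlings, also 5 days old, given 20 µM MG132 for 24 h and fixed with 1% formaldehyde, each with its own input. The single extraction text shared by all samples describes fixed, sonicated chromatin, and that DAP used genomic DNA is stated only in the design of the series. How the DAP DNA was prepared beyond that is not given in the sources used here, and what a DAP-only region stands for rests on that statement. MG132 blocks the proteasome, and the 35S promoter drives the fusion throughout the plant, so the ChIP does not show NAC103 at its own level. No ChIP of untagged seedlings was used here. The labels do not tell whether the replicates were grown separately.

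NAC proteins are a large family of plant transcription factors that bind DNA through a shared N-terminal domain, and NAC103 is known from the response of Arabidopsis to stress in the endoplasmic reticulum. DAP presents DNA without histones or other nuclear proteins to the tagged factor, so it reads the affinity of the factor for the sequence and its base modifications. ChIP reads where the factor sits in fixed chromatin of living tissue. A promoter lies beside the start of a gene, and flanking sequence also holds the region beyond its end. The direction of each gene and the sequence of the regions were not used here.

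The absence of a ChIP peak rests on lists of unequal length. They held 4187, 14318 and 17074 nuclear peaks for ChIP replicates 1, 2 and 3, against 20746 and 20962 for DAP replicates 1 and 2. Library depth is unknown, because the lists hold no read totals, and a region without a ChIP peak is one where none was called. Leaving out ChIP replicate 1, 2 or 3 gave 1859, 2030 and 2122 members. Since the rule used the DAP and ChIP peaks themselves, the values below describe the members and no test was made on them. Intervals are exact binomial intervals at 95% and cover counting error only.

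As a class, flanking regions more often had a ChIP peak than DAP regions inside coding genes or farther from them, but not more often than those just inside genes. Of the 2834 flanking regions, 65.4% had none (1853 regions, interval 63.6% to 67.1%), and the other 981 had one. Of the 10425 arm regions inside coding genes, 71.5% had none, and of the 1085 regions over 1000 bp from any coding gene, 77.6% had none. The regions inside genes differed by depth. At 101 to 200 bp from the gene end, 516 had no ChIP peak and 409 had one, against 2454 and 459 at over 1000 bp. Up to 500 bp inside, regions had a ChIP peak more often than the flanking regions as a whole. Over all arm regions the share was 70.7%. Among the 981 flanking regions with a ChIP peak, 452 had it in 1 list, 325 in 2 lists and 204 in all 3. Replicate 3 overlapped 788 of them, replicate 2 overlapped 675 and replicate 1 overlapped 251, so replicates 2 and 3 set most of the division.

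The members were of moderate strength in DAP, and both replicates ranked them alike. The authors' fold enrichment over background had a median of 2.69 in replicate 1 and 2.69 in replicate 2, with the middle 50% between 2.24 and 3.42 in replicate 1 and between 2.21 and 3.42 in replicate 2. It ran from 1.51 to 12.3 in replicate 1 and from 1.47 to 11.8 in replicate 2. The folds of the 2 replicates correlated across the 1853 members (Spearman 0.917, a description, since the replicates share an input and regions are not independent). They differed by more than 1.25 times in 100 members and by more than 1.5 times in 1. The summits of the 2 replicates lay 11 bp apart at the median, and within 50 bp in 1564 members. Where the fold and its p-value are read together as whole reads, the median member had 129 overlapping fragments at its summit in replicate 1 and 134 in replicate 2, over a background of 47.2 and 49.3. A count of that size has a counting error of 8.80% and 8.64%, and the median difference between the replicates was 0.11 on the log2 scale. The background was the same 47.2 in 98.8% of members in replicate 1 and the same 49.3 in 98.9% in replicate 2. In those members the fold followed the fragment count, with no local correction by the input.

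**Figure D1:**
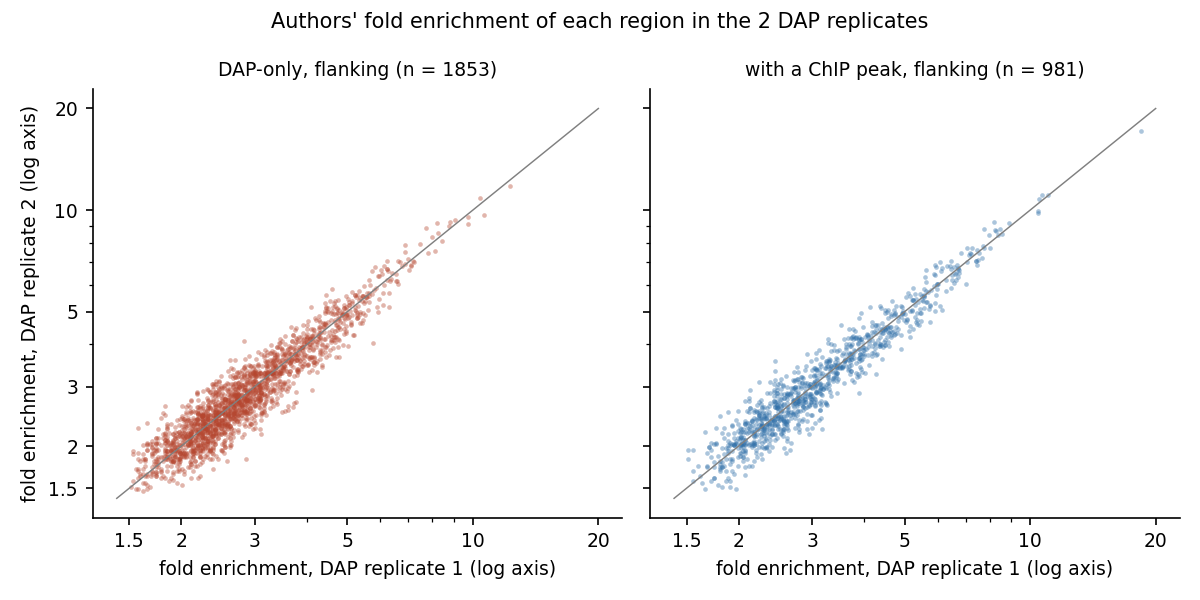
Fold enrichment of each region in DAP replicate 1 (x axis) and DAP replicate 2 (y axis), both log axes, for the 1853 DAP-only flanking regions on the left and the 981 flanking regions with a ChIP peak on the right; the grey line marks equal folds. Both sets follow the line (Spearman 0.917 and 0.942), and the highest DAP-only member reaches 12.3 in replicate 1, against 18.5 for the highest region with a ChIP peak.

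Beside the flanking regions with a ChIP peak, the members had somewhat lower folds. The medians were 2.69 in the members and 2.88 in the regions with a ChIP peak in replicate 1, and 2.69 and 2.86 in replicate 2. DAP-only regions inside coding genes had medians of 2.88 and 2.86 in replicates 1 and 2. A fold of at least 5 in both replicates was reached by 93 members (5.02%), by 105 regions with a ChIP peak (10.7%) and by 691 DAP-only regions inside genes (9.28%). The interquartile ranges overlap widely, so fold alone does not separate these classes. The members were also narrower than the flanking regions with a ChIP peak, 418 bp against 457 bp at the median, and as wide as DAP-only regions inside genes (417 bp).

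The share of flanking regions without a ChIP peak fell with DAP strength. Parted into 10 equal parts by mean fold, the lowest part (1.51 to 1.98) had no ChIP peak in 73.2% of regions (interval 67.7% to 78.3%). The highest part (4.80 to 17.8) had none in 51.8% (45.8% to 57.7%). The parts between did not fall evenly, and the seventh still stood at 70.8%. Width also moved with the share, so it was taken within 3 classes of width. In the widest class (530 to 2015 bp) it was 52.8% at high fold and 64.1% at low fold, in the middle class 59.8% and 67.5%, and in the narrowest class (265 to 378 bp) 68.1% and 75.3%. The direction was the same in each class of width, but the intervals overlap in the narrowest and the middle class. The size of this difference rested on ChIP replicate 2: without it, the highest part stood 11.3 percentage points below the lowest, against 21.5 with all lists. Taken alone, ChIP replicate 2 overlapped 40.1% of the highest part and 19.0% of the lowest, replicate 3 overlapped 34.2% and 23.9%, and replicate 1 overlapped 14.1% and 9.15%. For replicates 1 and 3 the intervals of the highest and the lowest part overlap.

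Distance from the gene moved with the share as well. The midpoints of the members lay 301 bp from the nearest coding gene at the median, against 208 bp for flanking regions with a ChIP peak. Within 100 bp of a gene 57.3% of flanking regions had no ChIP peak (interval 53.6% to 61.0%), and from 501 to 1000 bp 71.8% had none (68.5% to 74.9%). The same order held in each class of width: 51.8% within 100 bp and 64.8% beyond 300 bp for the widest, and 62.98% and 78.0% for the narrowest. ChIP lists 2 and 3 each overlapped fewer of the farther regions, 18.01% and 22.7% at 501 to 1000 bp against 30.7% and 33.4% within 100 bp. For the short list of replicate 1 these values were 7.41% and 9.70%, and their intervals overlap. ChIP summits in general also crowded near genes. Of them, 17.3% to 21.7% per arm lay within 300 bp outside a gene, against 6.98% to 11.4% after shifts of 2000 bp. How often any interval at each distance overlaps a ChIP peak was not computed. Whether the order by distance is particular to DAP regions was therefore not tested.

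**Figure D2:**
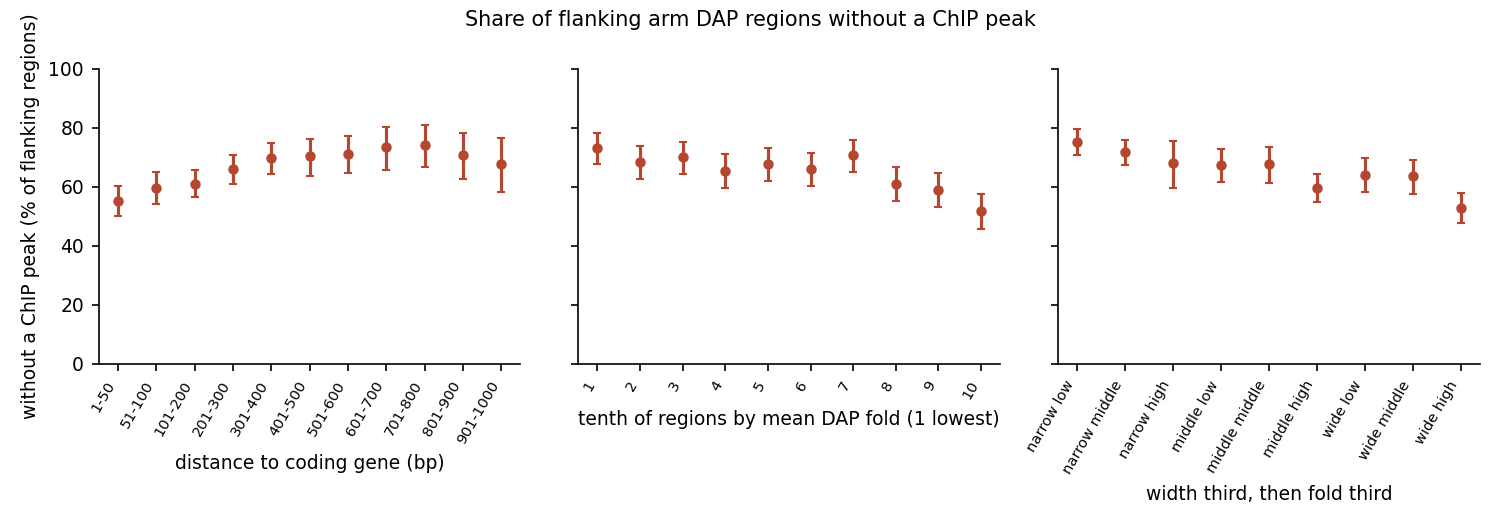
Percent of flanking arm DAP regions without a ChIP peak (y axis), by distance from the midpoint to the nearest coding gene in bp (left), by 10 equal classes of mean DAP fold (middle) and by width class with the fold class inside it (right). Points are shares and bars are exact 95% binomial intervals; the share is 55.3% within 50 bp of a gene and 51.8% in the highest of the 10 fold classes.

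Counted against the amount of sequence at each distance, the members thinned out only slowly away from genes. Flanking sequence made up 19.7 Mb of the arms and held 93.9 DAP-only regions per Mb, against 129 per Mb inside coding genes (57.7 Mb) and 79.4 per Mb farther than 1000 bp (10.6 Mb). DAP-only density was 111 per Mb in the first 100 bp outside a gene, 95.4 per Mb from 101 to 200 bp and 72.1 per Mb from 901 to 1000 bp. DAP regions with a ChIP peak went from 82.2 per Mb in the first 100 bp to 60.7 per Mb in the next 100 bp and 34.1 per Mb from 901 to 1000 bp. Over the 1000 bp the density of the regions with a ChIP peak fell more steeply than that of the members. The density of all ChIP peaks at these distances was not computed. Stretches that reads cannot be mapped to uniquely were counted in these lengths.

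**Figure D3:**
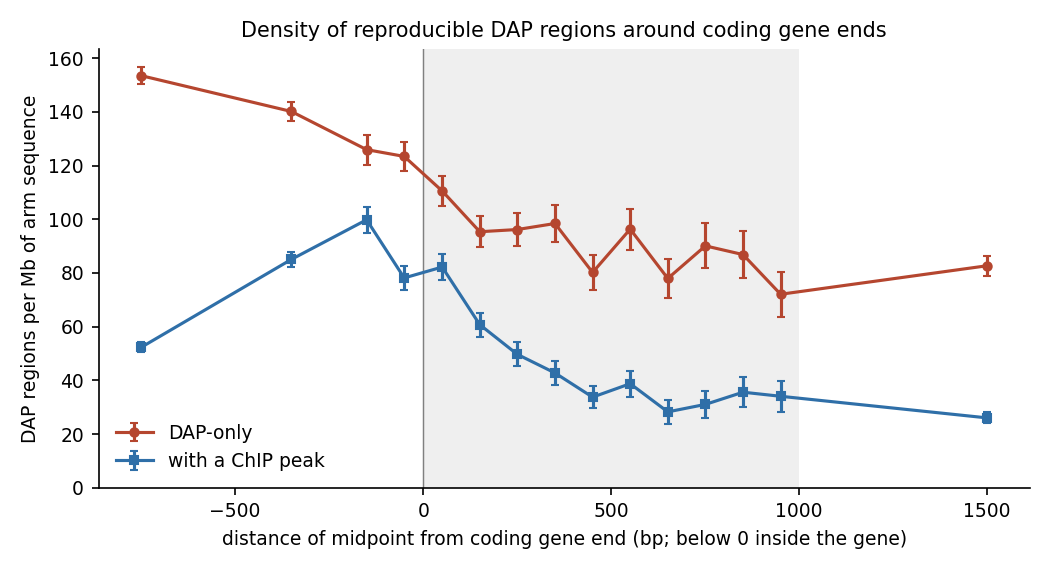
Reproducible DAP regions per Mb of arm sequence (y axis) against the distance of their midpoint from the nearest coding gene end in bp (x axis, below 0 inside the gene), DAP-only in red and with a ChIP peak in blue; bars are the square root of the count over the length. The grey band marks the 1 to 1000 bp in which the members lie, where the DAP-only class stands between 72.1 and 111 per Mb and the class with a ChIP peak between 28.3 and 82.2.

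On either side of the distance limit the regions had low to middling folds. The members nearest to 1000 bp lay 999, 998 and 997 bp from AT5G52140, AT1G68960 and AT4G17920, with folds of 2.43, 3.30 and 2.40 in replicate 1 and of 2.31, 3.60 and 2.47 in replicate 2. The nearest DAP-only regions outside it lay 1001, 1001 and 1002 bp from a coding gene, with folds of 2.09, 1.78 and 2.18 in replicate 1 and of 2.03, 1.95 and 2.07 in replicate 2. All 3 regions inside the limit were higher than the 3 outside it in both replicates, but so few regions show no trend. Over the 1853 members, fold hardly followed the distance to a gene (Spearman -0.03).

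The members lay in gaps of varied length between coding genes. The gap between the coding genes on either side was 1852 bp long at the median, and in 653 members (35.2%) both neighbours were within 1000 bp of the midpoint. Although the midpoints were outside genes, 803 members (43.3%) reached into a coding gene with an edge, by 141 bp at the median, against 583 of the 981 flanking regions with a ChIP peak (59.4%). Both summits lay inside a coding gene in 124 members (6.69%). Noncoding genes or pseudogenes covered the midpoint of 135 members (7.29%) and of 78 regions with a ChIP peak (7.95%). Pseudogenes made up more of this among the members, 51 (2.75%, interval 2.06% to 3.60%) against 11 (1.12%, 0.56% to 2.00%), while for long noncoding RNA genes the intervals overlap, 57 (3.08%, 2.34% to 3.97%) against 45 (4.59%, 3.37% to 6.09%). The members were spread over all 5 chromosomes, with 519, 293, 342, 295 and 404 on chromosomes 1 to 5, and the share without a ChIP peak ran from 64.2% on chromosome 5 to 68.0% on chromosome 2. Single arms varied more. The left and right arms of chromosome 1 stood at 59.2% (54.0% to 64.3%) and 69.9% (65.3% to 74.2%). On the other chromosomes the intervals of the arms overlap, with 69.5% and 60.5% on chromosome 5.

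In distance to the nearest ChIP peak the members were close to DAP-only regions inside genes. Of the members, 237 (12.8%) lay within 200 bp of one without touching it, and 725 (39.1%) within 1000 bp. For DAP-only regions inside genes these shares were 10.8% and 40.4%, and for those over 1000 bp from genes 7.96% and 32.7%. The share of all arm positions that near to a ChIP peak was not computed. The median distance of the members was 1614 bp, against 1413 bp for DAP-only regions inside genes. If a ChIP peak within 200 bp also counted as shared, 1616 members remained, or 57.0% of flanking regions.

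The 12 highest-ranked members, by the percentile of fold over both replicates, had folds of 7.71 to 12.3. The first lay on chromosome 3 at 18641471 to 18642803 (TAIR10), 881 bp from AT3G50290, with folds of 12.3 and 11.8 in DAP replicates 1 and 2. Its midpoint also lay in the transcribed pseudogene AT3G50295, and the nearest ChIP peak, in replicate 2, was 2725 bp away. The next, 55 bp from ATL4H (AT4G17905) on chromosome 4 at 9949863 to 9950330, had folds of 10.4 and 10.9. A ChIP peak of replicate 2 lay 274 bp from it. ATL4H is named after the ATL family, whose members are RING-type ubiquitin ligases.

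Some of these strong members had a ChIP peak close by without touching it. The region 6 bp from AT5G44760, on chromosome 5 at 18062461 to 18063079, had folds of 10.6 and 9.69, and the edge of a ChIP peak of replicate 3 lay 5 bp from it. The region 743 bp from AT1G13200, on chromosome 1 at 4505997 to 4506960, had folds of 9.76 and 9.57. Its nearest peaks in ChIP replicates 1, 2 and 3 were 538, 300 and 311 bp away. The region beside CTL2 (AT3G16920), a gene of a chitinase-like protein, had folds of 7.71 and 8.87 and a ChIP peak of replicate 3 at 279 bp; its other neighbour was AT3G16930.

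Others lay farther from any ChIP peak, at 713 to 4210 bp. The region 80 bp from AT5G45840 had folds of 9.74 and 9.11 on chromosome 5, 18597395 to 18598579, and its nearest ChIP peak was 4210 bp off. The region between AT3G48343 and AT3G48344 had folds of 8.83 and 9.21 with a ChIP peak 2852 bp off, and the one 219 bp from AT1G13500 had 8.42 and 8.08 with a ChIP peak 3051 bp off. Over all members the median of that distance was 1614 bp and the upper quartile 3618 bp. Between AT4G16090 and AT4G16095 the region had folds of 9.08 and 9.37, and its midpoint lay in the long noncoding RNA gene AT4G06380. Its nearest ChIP peak was 1221 bp off. The remaining regions of the first 12 lay beside AT3G04160 and AT3G04150 (8.77 and 8.97), AT5G44900 (8.21 and 9.17) and AT1G60830 (8.25 and 8.57). Their nearest ChIP peaks were 955, 713 and 1037 bp off, in that order.

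**Figure D4:**
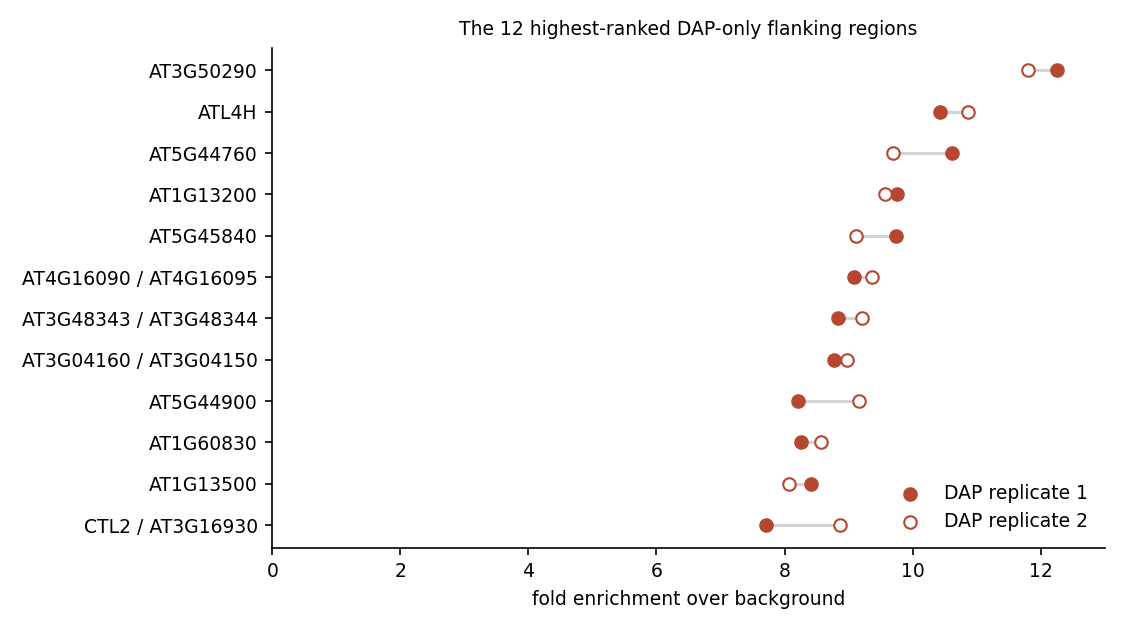
Authors' fold enrichment (x axis) of the 12 highest-ranked DAP-only flanking regions, named by their coding neighbours within 1000 bp, with DAP replicate 1 filled and DAP replicate 2 open. The folds run from 7.71 to 12.3, and the replicates differ most beside CTL2 (7.71 and 8.87).

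For comparison, the highest flanking region with a ChIP peak lay 17 bp from DAZ2 (AT4G35280), a zinc finger gene, with DAP folds of 18.5 and 17.2 and ChIP folds of 1.95 and 1.96 in replicates 2 and 3. The next, beside AT2G35555 and BPC7, had DAP folds of 11.03 and 11.1 and ChIP folds of 2.35, 4.09 and 2.99. The lowest members lay beside CYP81D7 and CYP96A1 (1.55 and 1.49) and AT3G10460 (1.51 and 1.51).

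The 93 members with a fold of at least 5 in both replicates were set beside the other 1760. This limit was chosen after the values were seen. The midpoint lay in a noncoding gene or pseudogene in 16 of the strong members (17.2%, interval 10.2% to 26.4%) and in 119 of the others (6.76%, 5.63% to 8.04%). The summits of the replicates lay within 50 bp in 98.9% of the strong members (94.2% to 99.97%) and in 83.6% of the others (81.8% to 85.3%). The median width was 492 bp and 411 bp. Summit and width are called from the same reads as the fold, so these differences are not independent of the limit. Over all members, fold and width had a Spearman of 0.21. Some features were close: a ChIP peak lay within 200 bp of 12.9% of the strong members and of 12.8% of the others, and the median distance to a coding gene was 275 bp and 303 bp. Over all members, fold hardly followed the distance to a gene (Spearman -0.03) or to the nearest ChIP peak (0.05).

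A coding gene lay within 1000 bp of a member midpoint for 2471 of the 24061 coding genes of the arms, or 10.3%. For flanking regions with a ChIP peak the share was 5.64%, and 78 genes had a region of both kinds. Of the 2471 genes, 118 were beside 2 members. Of the same genes, 1387 (56.1%) had a ChIP peak elsewhere in the gene or within 1000 bp of it, against 72.6% of all coding genes of the arms. Part of that lower share is set by the rule, which leaves the sequence of the member itself without a ChIP peak. A DAP-only region also lay inside 620 of them (25.1%), against 27.3% of all coding genes. The genes beside members were 1894 bp long at the median, against 2120 bp for all.

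Gene families named in the gene table were then counted beside the members. The LCR and SCRL genes encode small secreted cysteine-rich proteins. Of 93 on the arms, 14 lay beside a member (15.1%, interval 8.48% to 24.0%), against 10.3% of all coding genes, and 1 beside a flanking region with a ChIP peak (1.08%, 0.03% to 5.85%), against 5.64%. Of the 14, 2 had a ChIP peak in the gene or within 1000 bp of it, against 56.1% of all genes beside members, and the other 12 had none. In other long lists, 5 of 12 NAC genes, 9 of 17 MYB genes and 11 of 26 cytochrome P450 genes beside members had none. LCR17 had a member 850 bp away with folds of 6.88 and 7.86 (chromosome 4, 7081081 to 7081510), LCR56 one 686 bp away with 6.76 and 6.84, and SCRL21 one 169 bp away with 5.10 and 4.60. The first of these midpoints lay in the long noncoding RNA gene AT4G05920 and the second in the pseudogene AT3G20990. Over the 11 alternative settings the count beside members ran from 9 to 18 and that beside regions with a ChIP peak stayed at 1. Both intervals include the share of all genes, 10.3% beside members and 5.64% beside regions with a ChIP peak.

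For the transcription factor families, the intervals of the share beside members all include that of all genes. Of 88 NAC genes, 12 were beside a member (13.6%, interval 7.25% to 22.6%) and 10 beside a region with a ChIP peak (11.4%), against 10.3% and 5.64% of all coding genes. Without ChIP replicate 2 these counts were 17 and 6. NAC073, a regulator of secondary cell wall formation, had a member 300 bp away with folds of 5.95 and 6.39, whose other neighbour was HAE, the receptor kinase gene of floral organ shedding. NAC045, which acts in the formation of phloem sieve elements, had one 248 bp away (4.91 and 4.79), and NAC065 one 892 bp away (4.08 and 4.24). Of 111 MYB genes, 17 were beside a member (15.3%, 9.18% to 23.4%) and 8 beside a region with a ChIP peak (7.21%). MYB66, which acts in the patterning of the root epidermis, shared a member of folds 3.99 and 4.14 with CA2, a carbonic anhydrase gene. MYB68 had a member of 3.69 and 4.10, and MYB39, a regulator of suberin, one of 3.79 and 3.34.

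WRKY and ERF genes are families of stress and hormone responses. Of 68 WRKY genes, 9 (13.2%) were beside a member and 6 (8.82%) beside a region with a ChIP peak. WRKY24, with AT5G41580 on the other side, had folds of 3.48 and 3.42, WRKY56 3.01 and 2.98, and WRKY35 2.47 and 3.10. Of 55 ERF genes, 7 (12.7%) were beside a member and 11 (20.0%, interval 10.4% to 33.0%) beside a region with a ChIP peak, against 10.3% and 5.64% of all coding genes. The order of these ERF counts did not hold under all settings: they were 9 and 9 without ChIP replicate 3, and 8 and 6 with regions placed by summit. The members were at RAP2.4 (3.54 and 3.78), where ChIP peaks of replicates 2 and 3 lay 247 and 269 bp off, at AT5G07310 (2.30 and 2.57) and at CRF8 (2.45 and 2.33), to name the 3 highest.

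Genes of protein turnover, protein folding and mitochondrial stress were counted against the 10.3% of all coding genes beside a member and the 5.64% beside a region with a ChIP peak. None of 38 genes of 26S proteasome subunits lay beside one (0 of 38, upper bound 9.25%), and 3 lay beside a region with a ChIP peak (7.89%). Of 25 genes of folding in the endoplasmic reticulum, 1 lay beside a member, PDIL1-5, a protein disulfide isomerase-like gene, whose region had folds of 1.93 and 1.89 and is shared with AT1G52270. The interval for folding genes ran from 0.10% to 20.4%. Over the 11 alternative settings the count of proteasome genes beside members was 0 or 1. Without DAP replicate 1, 6 proteasome genes and 3 folding genes lay beside a region with a ChIP peak, against 3 and 1 with both DAP lists. Of 13 genes of the mitochondrial dysfunction response, 3 lay beside a member and 6 beside a region with a ChIP peak (23.1%, interval 5.04% to 53.8%, and 46.2%, interval 19.2% to 74.9%). Those beside members were NDA1 and NDA2, alternative NAD(P)H dehydrogenases, with folds of 4.56 and 4.95 and of 2.11 and 2.53, and AOX1B, an alternative oxidase, with 3.11 and 2.51. All 3 also had a ChIP peak within 1000 bp of the gene or inside it. So did 56.1% of all genes beside members and 72.6% of all coding genes of the arms, and 3 genes are too few to compare.

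Of 49 heat shock genes, 7 lay beside a member (14.3%, interval 5.94% to 27.2%) and 4 beside a region with a ChIP peak (8.16%). HSP21, a small heat shock protein of plastids, had a member with folds of 5.33 and 5.43, and ChIP peaks of replicates 2 and 3 lay 258 and 245 bp from it. ERD2 (AT1G56410), an HSP70 gene, had one with 4.15 and 4.24, 11750 bp from any ChIP peak. The small heat shock genes HSP17.6II and HSP17.6A shared one with 2.61 and 2.59.

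Enzyme families and ribosomal proteins were counted against the same shares of all coding genes, 10.3% and 5.64%. Of 217 cytochrome P450 genes, 26 lay beside one (11.98%) and 19 beside a region with a ChIP peak (8.76%), led by CYP705A18 (4.91 and 5.13), CYP96A15 of wax synthesis (4.42 and 5.03) and CYP94B1 of jasmonate turnover (4.50 and 4.65). Without ChIP replicate 3 the P450 counts were 32 and 12. Of 58 glycosyltransferase genes of the UGT family, 2 lay beside a member (3.45%, interval 0.42% to 11.9%) and 8 beside a region with a ChIP peak (13.8%, 6.15% to 25.4%). The UGT contrast rested on ChIP replicate 3, without which the counts were 5 and 5, and by summit they were 4 and 5. The members were those of UGT71B5, which shares a member of 8.11 and 7.58 with ATCSLB05 and has ChIP peaks of replicates 2 and 3 at 53 and 39 bp, and UGT71C1 (1.55 and 1.71). Of 48 ribosomal protein genes, 3 lay beside a member and 3 beside a region with a ChIP peak (6.25% each): AT4G14320 (2.65 and 2.71), RPL16B, whose region is also beside BIN2 (2.45 and 2.84), and RPS2 (1.60 and 1.65). Without ChIP replicate 3 the ribosomal counts were 5 and 2. None of the 5 EC1 genes of the egg cell lay beside a member, and 1 lay beside a region with a ChIP peak.

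**Figure D5:**
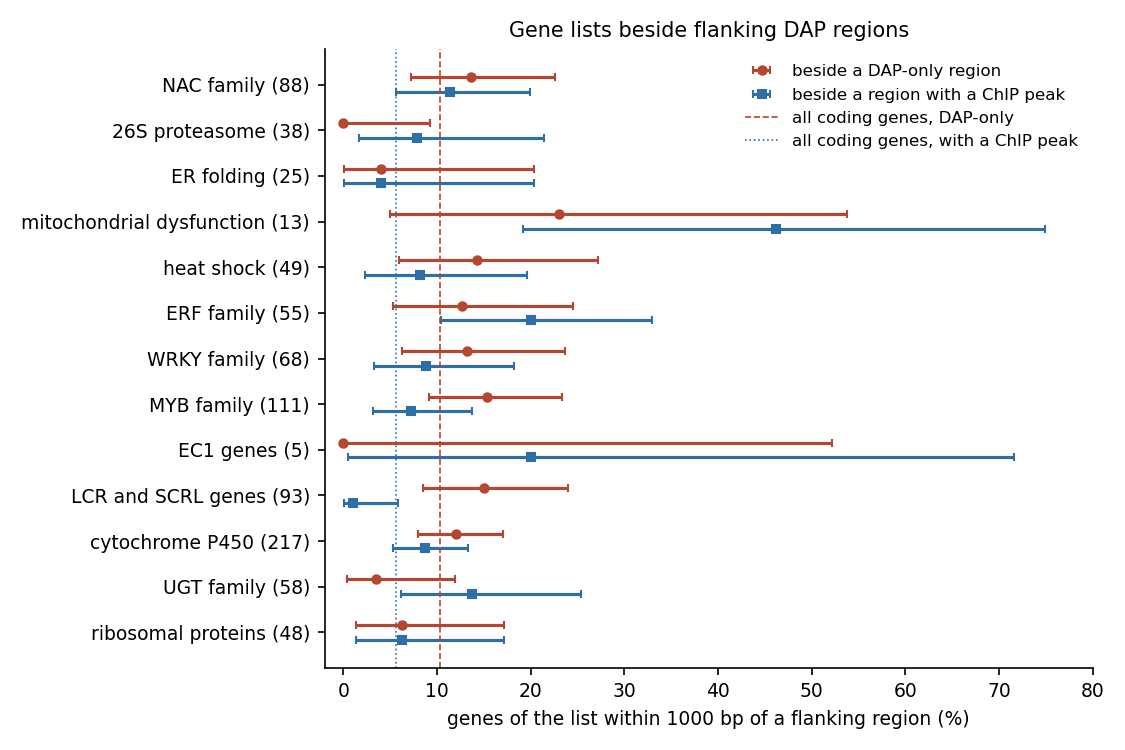
Percent of the arm genes of each list (size in brackets) with a flanking region midpoint within 1000 bp (x axis), for DAP-only regions in red and for regions with a ChIP peak in blue; bars are exact 95% binomial intervals and the vertical lines mark all coding genes (10.3% dashed, 5.64% dotted). LCR and SCRL genes stand at 15.1% and 1.08%, and the interval of most lists covers the line of its own kind.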

How the data were processed

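The 5 deposited peak lists hold narrow peaks per replicate against input, made with BWA and MACS2 on TAIR10 per the submitters' processing notes, without versions. Per the narrowPeak layout, the authors' lists give each peak's fold enrichment (a ratio), its p and q as −log10 values, and its summit. Only nuclear peaks were used. The arms leave out 11.5 to 17.7, 1.1 to 7.2, 10.3 to 17.3, 1.5 to 6.3 and 9.0 to 16.0 Mb of chromosomes 1 to 5. Coding gene spans came from a RefSeq table of TAIR10.1, without strand. Its frame was checked: in 10 of 10 arms, ChIP summits lay within 300 bp outside a gene more often as given (17.3% to 21.7%) than after shifts of 2000 bp (6.98% to 11.4%). Regions were ranked by the mean percentile of fold among 18082 reproducible nuclear regions. Whole-read pileups assume that MACS2 adds 1 to pileup and background, and fitted −log10 p within 0.01 for 100% of the members. The 13 gene lists were matched by name, leaving out 17 loci that share one. Named were the 12 highest members, up to 3 per list, 3 on each side of the distance limit, the 2 lowest, and the 2 highest regions with a ChIP peak. Members and lists were chosen with earlier results of these data known. On 1200 simulated regions, 0 were misclassed. Python 3.11.15, pandas 2.3.3 and scipy 1.17.1 were used.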

Additional observations from a re-analysis of the deposited data

How the results depend on the processing

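The number of members stayed within 1.5 times of 1853 in all 11 alternatives (1291 to 2355). The contrasts of share within flanking regions, by distance and by fold, and those of median fold and distance kept their direction. The shares without a ChIP peak inside genes and over 1000 bp away were not recomputed in the alternatives. Of the gene lists, the order of the count beside members and that beside regions with a ChIP peak turned for ERF genes by summit (8 and 6) and for P450 genes with the 200 bp rule (23 and 24), and other lists reached equal counts under some settings. Leaving out a replicate put the share of flanking regions without a ChIP peak between 65.6% and 74.9%, the ratio of median folds between 0.891 and 0.966 over regions with a ChIP peak and between 0.926 and 0.936 over DAP-only regions inside genes, and the median distance to a gene 78 to 95 bp beyond that of regions with a ChIP peak. It put the share in the highest of 10 fold classes minus that in the lowest between -21.6 and -11.3 percentage points, the last without ChIP replicate 2. Counting a ChIP peak within 200 bp as shared gave a share of 57.0%, a fold ratio of 0.964 and a distance difference of 79 bp. A gene limit of 500 bp gave 62.9%, fold ratios of 0.917 and 0.940 (inside genes) and 46.5 bp, and one of 2000 bp gave 67.4%, 0.929 for both ratios and 156 bp. Placing regions by summit gave ratios of 0.929 and 0.930, a −log10 q of at least 10 gave 0.948 (inside genes) and 98 bp, and a 50% overlap of the replicates gave 0.943 (with a ChIP peak). The causes were not tested. Of the values for the number of members and the main contrasts, 30 moved beyond their limit and 46 did not. The limit was 1.5 times for the number, and the counting error or the spread of the replicates for the contrasts. The counts beside genes moved by over 1.5 times in 40 cases and not in 257. The planned sequence words and gene starts were not run, since they need a sequence and a strand. The contrast of shares between 501 to 1000 bp and 1 to 100 bp has no value at the 500 bp limit. No paired analysis was possible because the results come from no test across samples. The lists give no read totals, so how far ChIP depth limits the calls is unknown.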
